A study of Mus musculus with 2 samples.

Results

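The Wnt pathway genes described here are the ligands, receptors, secreted inhibitors and first intracellular components of Wnt signalling, with the genes Sp5 and Axin2 as markers of pathway activity. They were chosen by gene symbol, by a rule that uses no measured value, though with earlier results of these data known. The rule took the non-control probes whose RefSeq transcript belongs to a numbered Wnt, Fzd, Sfrp or Dkk gene or to 21 further named pathway genes. It found 58 genes among 21363 named on the array, represented by 73 of 55681 distinct probes and 74 spots. The RNA came from mouse retinas dissected at postnatal day 12, 1 sample labelled wild type (the WT-labelled array) and 1 labelled Samd7 KO (the KO-labelled array), each on 1 single-colour Agilent array. Strain, sex, the deleted part of Samd7, and the number of animals or retinas behind each RNA are not stated in the labels. The design text sets the expression profiles of the genotypes against each other.

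Wnt proteins bind Frizzled receptors together with the co-receptors Lrp5 or Lrp6. In the canonical branch this stops a complex built on Axin from marking beta-catenin for destruction, and beta-catenin then acts in the nucleus with the DNA-binding factors Lef1, Tcf7, Tcf7l1 and Tcf7l2. Several of the genes that it switches on act back on the pathway, among them Axin2, Nkd1, Rnf43, Znrf3, Lgr5 and the zinc-finger factor Sp5. In the retina the pathway is known above all for the ciliary margin and for blood vessel growth, the latter driven by norrin, which is no Wnt protein but binds Fzd4.

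Of the 42 Wnt pathway genes measured on both arrays, 6 (14.3%) differed by over 2 times the scanner's own error, against 5.84% of all 15254 named genes so measured. This count was not among the planned ones and was not recomputed under other processing. By the planned 2-fold threshold, 1 of the 42 was higher (1.05% of all) and 1 lower (0.616% of all). The median difference was -0.02 both in these genes and in all named genes so measured. The R-spondin gene Rspo2 was 2.19-fold higher on the KO-labelled array and Lgr5, which encodes an R-spondin receptor, 1.91-fold higher. Sp5 was 7.78-fold lower, but its brighter spot was uneven. Median pixel values gave 4.31-fold, and Sp5 had no value once uneven spots were left out. Normexp on median pixel values gave -1.07 on the log2 scale, but its offset of 50, added to every signal, draws differences of dim probes toward 0. The ligand gene Wnt4 was 1.91-fold lower in its brighter probe. It was at -0.39 on the log2 scale over both probes, but the other probe was above background on neither array. Axin2 differed by 0.04 on the log2 scale in one probe and by -0.74 in another. With 1 array a group there is no test and no spread between animals, so each difference compares these 2 arrays.

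The targeted gene was not lower on the KO-labelled array. Samd7 had a log2 level of 4.68 on the WT-labelled array and 6.47 on the KO-labelled array, which is 3.44-fold higher on the latter. Whether its probe lies in the deleted part is not known here, so this value does not check the label, and the arrays are called by their labels throughout. A level is the log2 signal of a probe minus the 75th percentile of its array, and a difference is the level on the KO-labelled array minus that on the WT-labelled array. Levels are compared between arrays for the same probe only. Spots called well above background by the scanner made up 60.3% and 60.9% of all spots, and none of the 74 spots of the Wnt pathway genes was flagged or saturated. Probes spotted more than once gave a technical SD of the difference of 0.05 where the level was 0 or more, 0.09 between -2 and 0, 0.19 between -4 and -2, and 0.33 for dimmer probes. This SD is a spread of spots within the same arrays and leaves out labelling, hybridization and animals.

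The promoters of Sp5, Axin2 and Wnt4 are shown because Sp5 and Axin2 mark pathway activity and differed from each other, and because Wnt4 was the lowest of the ligands measured on both arrays. Each is the 250 bases before the annotated start in RefSeq on GRCm38.p6, written 5′ to 3′ on the plus strand, which is the gene's strand for all of them. Capitals mark the core letters bound by Tcf and Lef proteins, CTTTGA, searched on both strands. Sp5 lies at chr2:70474673-70474922, Axin2 at chr11:108920099-108920348 and Wnt4 at chr4:137277385-137277634.
Sp5: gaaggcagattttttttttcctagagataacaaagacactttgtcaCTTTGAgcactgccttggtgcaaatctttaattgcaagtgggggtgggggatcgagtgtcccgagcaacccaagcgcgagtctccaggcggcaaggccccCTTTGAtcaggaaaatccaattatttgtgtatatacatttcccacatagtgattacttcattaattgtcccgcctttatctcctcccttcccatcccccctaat
Axin2: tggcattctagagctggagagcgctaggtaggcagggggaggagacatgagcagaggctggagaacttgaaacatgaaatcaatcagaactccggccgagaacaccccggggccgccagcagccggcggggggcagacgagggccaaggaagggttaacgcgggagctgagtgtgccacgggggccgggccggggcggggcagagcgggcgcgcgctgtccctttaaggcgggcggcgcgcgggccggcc
Wnt4: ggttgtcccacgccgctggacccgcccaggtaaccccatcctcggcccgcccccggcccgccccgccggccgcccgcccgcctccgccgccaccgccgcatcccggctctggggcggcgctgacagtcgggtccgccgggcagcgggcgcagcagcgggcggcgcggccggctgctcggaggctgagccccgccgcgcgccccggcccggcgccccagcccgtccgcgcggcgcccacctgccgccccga
The Sp5 window held CTTTGA at 2 places on the gene's strand, with first bases 204 and 104 before the start. The windows of Axin2 and Wnt4 held these letters at 0 places, which says nothing of sites elsewhere. Of 32851 RefSeq promoters of this length, 13.8% held the letters at least once and 1.37% at 2 or more places. Among 49 promoters of 39 of the Wnt pathway genes, 7 held them (14.3%), and those with 2 or more places belonged to Sp5, Lef1 and Dkk1. The windows also differed in base composition, with 6 CG pairs and 46% G and C in Sp5, 24 and 69.2% in Axin2, and 44 and 85.2% in Wnt4. The GC box letters GGGCGG, searched on both strands, occurred at 0 places in Sp5, 2 in Axin2 and 7 in Wnt4, so none of these windows held both motifs. They were in 65.3% of the promoters of the Wnt pathway genes and in 32.7% of all promoters, and the median number of CG pairs was 17 and 6, respectively.

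In all, 42 of the 58 Wnt pathway genes were well above background on both arrays, 2 on a single array and 14 on neither, which leaves 44 with a value. A difference of at least 2-fold was taken as the threshold. On the KO-labelled array 3 of the 44 were at least 2-fold higher (6.82%), against 1.58% of all 15934 named genes above background, and 1 was at least 2-fold lower (2.27%), against 1.37%. These shares are not taken at like signal, since only 10 of the 44 had a mean signal at or above the median of all genes. Above that median, 0.879% of all genes were at least 2-fold higher and 0.176% lower, so dimmer genes passed more often. Only Rspo2 and Sp5 among the 4 members past 2-fold were measured on both arrays. Wnt10a and Wnt16 were above background on the KO-labelled array alone. With genes measured on both arrays only, 1 of 42 was higher against 1.05% of all, and 1 of 42 was lower against 0.616%. A 1.5-fold threshold took in 4 higher and 2 lower genes of 44, against 2.96% and 3.2% of all genes. The median difference of the 42 genes was -0.02, the same to 2 decimals as the -0.02 of the 15212 other named genes. The difference was at most 0.25 in size for 33 of the 42 (78.6%), against 84.1% of the other named genes.

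**Figure D1:**
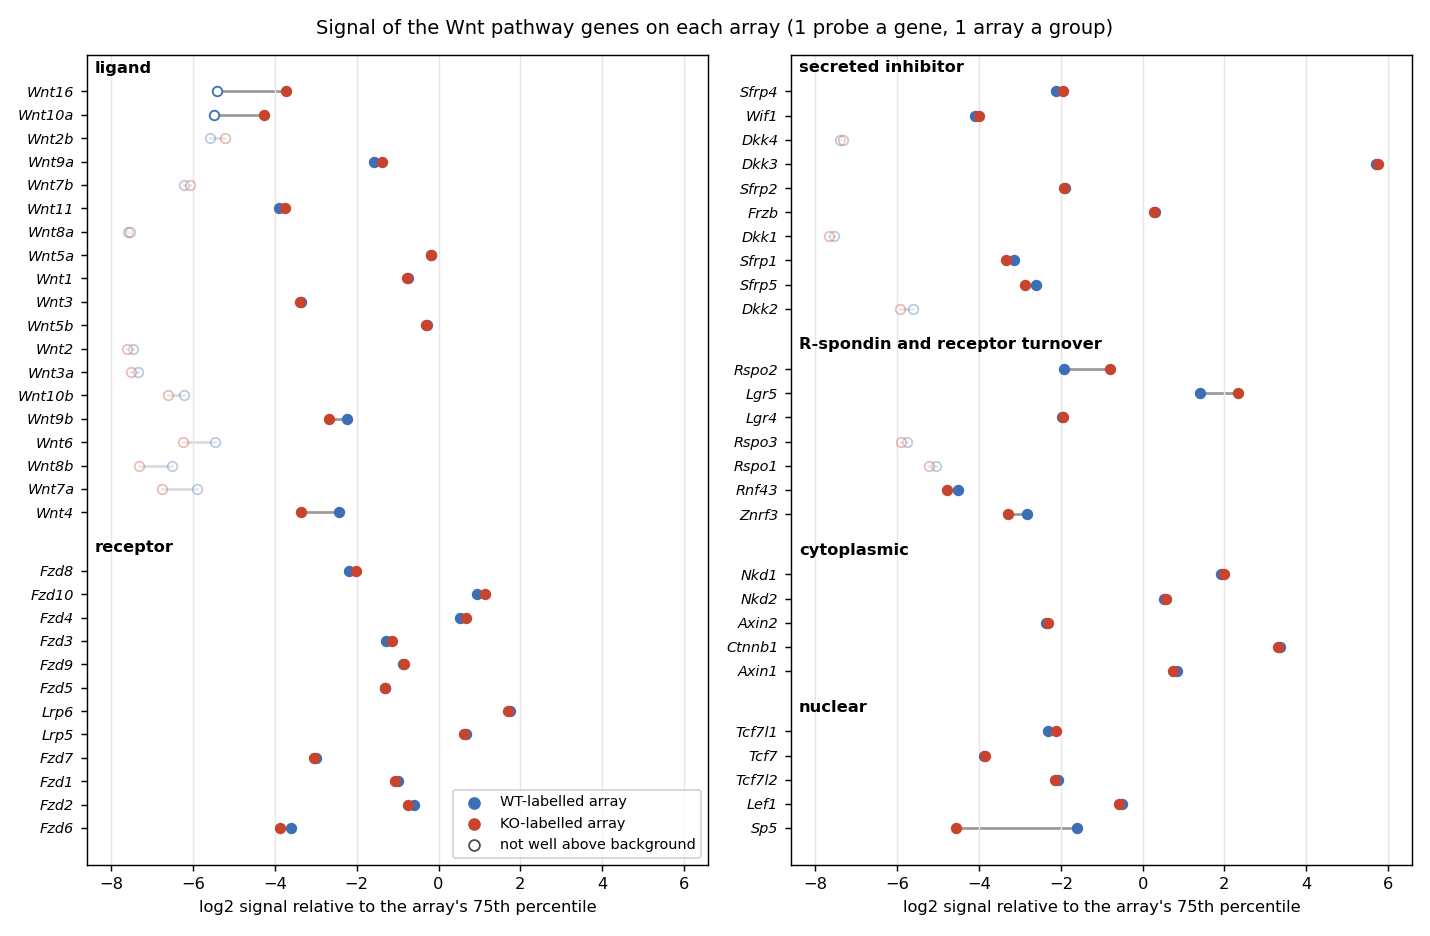
Log2 signal relative to the array's 75th percentile (horizontal axis) of the 58 Wnt pathway genes by role, with 1 probe a gene; blue points are the WT-labelled array, red points the KO-labelled array, open points are not well above background, and genes with pale points were above background on neither array. Most point pairs overlap, while Rspo2, Lgr5, Wnt10a and Wnt16 are shifted to the right on the KO-labelled array and Sp5 and Wnt4 to the left.

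The scanner software gives an error for every spot, about 10% of the signal for bright spots, which carries over to an error of about 0.20 on the log2 difference. Rspo2 and Lgr5 were higher by over 2 times this error, against 2.9% of the 15254 named genes measured on both arrays. Sp5, Wnt4, Wnt9b and Znrf3 were lower by over 2 times this error, against 2.94% of those genes. This error covers the spot and not the animal.

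**Figure D2:**
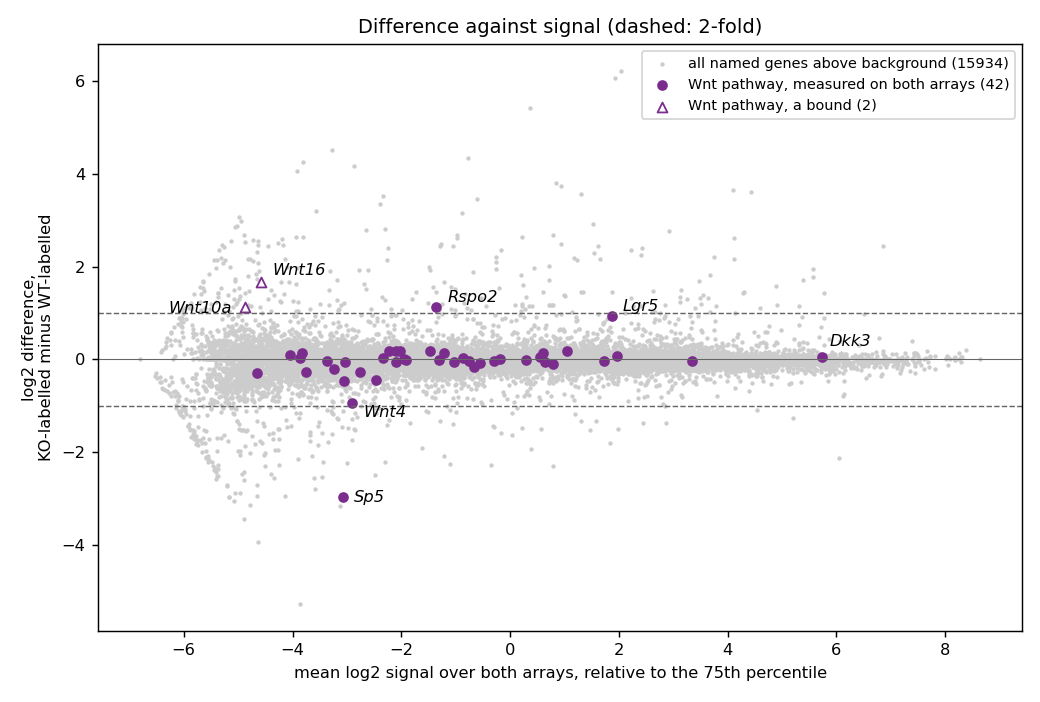
Log2 difference between the arrays (vertical axis) against the mean log2 signal over both arrays (horizontal axis), grey for the 15934 named genes above background, filled purple for the 42 Wnt pathway genes measured on both arrays and open triangles for the 2 whose difference is a bound; dashed lines mark 2-fold. Sp5 (-2.96) lies far below the other Wnt pathway genes, and Rspo2 (1.13) and Lgr5 (0.93) lie near the upper dashed line at signals where the grey cloud is narrow.

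R-spondins are secreted proteins that bind the receptors Lgr4 and Lgr5 and thereby keep the ubiquitin ligases Znrf3 and Rnf43 from removing Frizzled receptors from the cell surface. Rspo2 had a signal of 151.7 ± 15.6 (scanner error, 1 spot) on the WT-labelled array and 319.7 ± 32.1 on the KO-labelled array. These correspond to levels of -1.92 and -0.79 and a difference of 1.13, against a technical SD of 0.09 and a scanner error of 0.21. Lgr5 had a signal of 1526 ± 153 on the WT-labelled array and 2803 ± 280 on the KO-labelled array. Its levels of 1.41 and 2.34 differ by 0.93, against a technical SD of 0.05 and a scanner error of 0.20. Ligand and receptor were therefore both higher on the KO-labelled array, each in its single probe. The related receptor Lgr4 was level, at -1.96 and -1.94. Rspo1 and Rspo3 were well above background on neither array.

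The ubiquitin ligase genes went the other way or lay within their error. Znrf3 had a level of -2.82 on the WT-labelled array and -3.29 on the KO-labelled array, a difference of -0.47 with a scanner error of 0.22. Rnf43 was dim, with levels of -4.51 and -4.79, and its difference of -0.29 is smaller than its scanner error of 0.34. With median pixel values the differences were -0.48 for Znrf3 and 0.25 for Rnf43, and with normexp and quantile normalization of such values they were -0.28 and 0.04, so the sign of Rnf43 was not the same in all settings. Of the 7 genes of this group, 5 were above background, 1 of them 2-fold higher and none 2-fold lower.

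Some marker genes of other cell types and tissues differed between the arrays too. In bulk RNA, the number of cells of a type, the RNA per cell and the expression of single genes cannot be told apart. Of 12 lens markers, 9 were at least 2-fold higher on the KO-labelled array, and their summed signal was 4.99 times the 75th percentile on the WT-labelled and 20.5 times on the KO-labelled array. Lim2 and Mip of this list were not well above background on the WT-labelled array. Of 10 cone markers, 4 were at least 2-fold higher, with a summed signal of 157 on the WT-labelled and 428 on the KO-labelled array. Gngt2 alone made up 49.7 and 271.8 of these, and without it the sums were 107.4 and 156.5. Of all named genes measured on both arrays, 58.1% were lower on the KO-labelled array, which is the share to set beside the counts that follow. Of 11 pigment epithelium and pigment cell markers, 9 were lower (81.8%), though none 2-fold, with sums of 53.4 and 45.6. Of 10 Müller glia markers 9 were higher, with sums of 226 and 250.1, or 175.8 and 182.3 without Apoe. Of 11 endothelial and pericyte markers 8 were lower (72.7%), with sums of 36.8 and 35.6. Of 8 microglia markers 7 were lower with a median of -0.14, while their sums were 21.2 and 22.1, or 12.1 and 10.7 without Itgam. Of 9 rod markers 8 were lower, with sums of 1035 and 847, or 897 and 815 without Gnat1. The sums for 8 markers of the ciliary margin and ciliary body were 10.6 and 6.18. The difference in the last list lay in the water channel gene Aqp1 (-1.49), while the other 6 of its genes above background lay between -0.13 and 0.09. The highest and lowest genes were Crybb2 (2.80) and Bfsp2 (-0.15) in lens, Cnga3 (2.91) and Opn1mw (-0.17) in cones, and Best1 (0.15) and Pmel (-0.81) in pigment cells. They were Apoe (0.44) and Rlbp1 (-0.00) in Müller glia, Kcnj8 (0.33) and Tek (-0.29) in vessels, Itgam (0.33) and Csf1r (-0.23) in microglia, and Rom1 (0.08) and Gnat1 (-2.13) in rods. The part of lens, cone, pigment or ciliary cells in the values of Rspo2, Lgr5 or any other Wnt pathway gene was not tested.

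**Figure D3:**
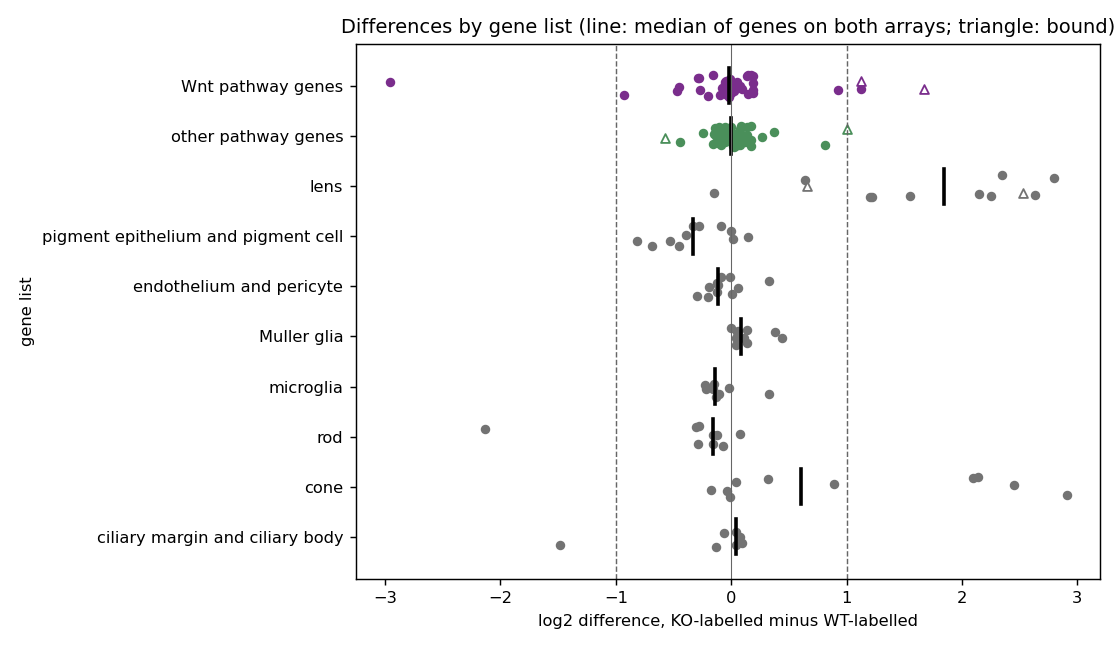
Log2 difference (horizontal axis) of each gene above background, by gene list (rows), with filled points for genes measured on both arrays, open triangles for bounds, a black line at the median of the filled points and dashed lines at 2-fold. The Wnt pathway genes (median -0.02) and the other pathway genes (median -0.004) centre on 0, lens (median 1.85) and cone markers (median 0.60) reach far to the right, and pigment markers (median -0.33) lie to the left.

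Sp5 is a zinc-finger transcription factor and a direct target of beta-catenin with Tcf and Lef factors in many tissues. Its single probe, A_51_P404193, had a signal of 189.9 ± 25.0 on the WT-labelled array and 23.5 ± 3.67 on the KO-labelled array. The levels of -1.60 and -4.56 differ by -2.96. Both spots were called well above background. The WT-labelled spot, however, was uneven: its background-subtracted signal was 188.3 while the median of its pixels minus the median local background was 127. The ratio of 1.48 (0.57 on the log2 scale) was reached by 2 of 4493 spots with a signal within 1.5-fold of it on that array, this spot included, and such spots had a median log2 ratio of -0.01 with an SD of 0.05. No other Wnt pathway spot above background on that array exceeded 0.09. The scanner's error was 13.2% of the signal for this spot, where 10.1% was the median of spots of like signal.

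The direction of the Sp5 difference was the same with either brightness measure, and its size was not. With median pixel values Sp5 gave 127 against 29.5, which is 4.31-fold lower on the KO-labelled array before scaling and -2.07 on the log2 scale after it. Normexp correction of the same median values with an offset of 50, followed by quantile normalization, gave -1.07. Leaving out spots with a log2 ratio above 0.25, an alternative chosen after seeing the data, removes the single Sp5 probe by construction. Sp5 then has no value and no Wnt pathway gene was 2-fold lower, which says nothing more about Sp5. Sp5 thus rests on 1 probe and 1 spot an array, of which the brighter was uneven.

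Axin2, the scaffold whose gene is the most used readout of canonical signalling, did not follow Sp5 in its main probe. Probe A_55_P2000783 had a signal of 111.7 ± 11.6 on the WT-labelled array and 110.6 ± 11.4 on the KO-labelled array, levels of -2.36 and -2.32 that differ by 0.04. The dimmer probe A_66_P134405, for the same transcript, had signals of 42.3 ± 5.38 and 24.4 ± 3.76. Its levels of -3.76 and -4.51 differ by -0.74, against a technical SD of 0.33 for probes with a mean level below -4. The probes are 0.78 apart, the widest gap among the 7 Wnt pathway genes with 2 probes above background on both arrays, whose median gap was 0.17. The mean over both Axin2 probes was -0.35.

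The other feedback targets lay on both sides of 0. Of 14 genes taken as targets that act back on the pathway or mark its activity, 13 were measured on both arrays. Their median difference was 0.03, with 7 above 0 and 6 (46.2%) below it, against 58.1% of all named genes so measured. Sp5 was the only one past 2-fold, and Lgr5 was the highest. Nkd1, which restrains Dishevelled, had signals of 2178 and 2219 and was at 0.08 and at 0.31 in its other probe, and its relative Nkd2 at 0.05. Lef1 had levels of -0.51 and -0.58 and was at -0.08 and, in its other probe, -0.25. Notum, a secreted enzyme that inactivates Wnt proteins, was at -0.05 and the Wnt inhibitor gene Apcdd1 at 0.17. The growth genes Ccnd1 and Myc were at -0.01 and 0.07. Dkk1 was not well above background on either array. Of the markers of pathway activity, Sp5 was thus lower in its only probe, which had an uneven spot. Axin2 was lower in its dimmer probe and level in its main probe, and the targets as a list lay at 0.03.

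**Figure D4:**
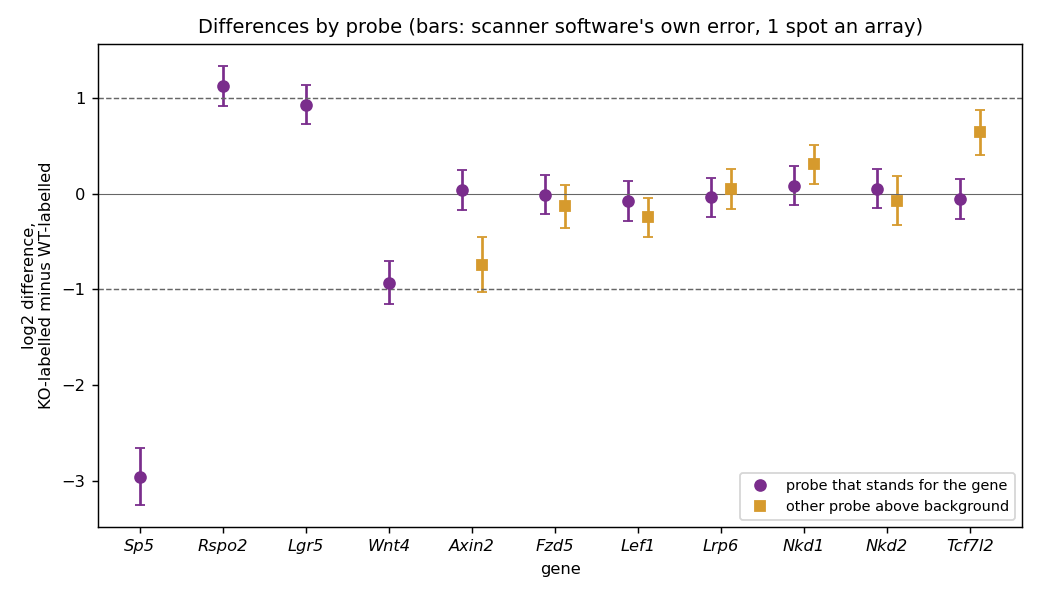
Log2 difference of each probe above background on both arrays for Sp5, Rspo2, Lgr5 and Wnt4 and for the 7 Wnt pathway genes with more than 1 such probe; purple circles are the probe that stands for the gene, orange squares its other probe, bars the scanner software's error of the difference, and dashed lines 2-fold. The probes of Axin2 (0.04 and -0.74) and Tcf7l2 (-0.06 and 0.64) lie apart by more than their bars, and those of Fzd5, Lef1, Lrp6, Nkd1 and Nkd2 overlap.

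Of the 19 Wnt ligand genes, 10 were above background, 8 of them on both arrays, and those 8 had a median difference of -0.03. Wnt5a, a ligand best known for signalling without beta-catenin, had levels of -0.18 on both arrays. Its relative Wnt5b was at -0.28 and -0.32. Wnt1, Wnt3, Wnt9a and Wnt11 differed by -0.03, -0.03, 0.19 and 0.14. The ligand genes that stood apart were dim ones.

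Wnt4 had a signal of 106.1 ± 11.1 on the WT-labelled array and 53.6 ± 6.06 on the KO-labelled array. Its levels of -2.44 and -3.37 differ by -0.93, with a scanner error of 0.22, which is just under 2-fold. Its other probe was well above background on neither array. The mean over both Wnt4 probes was -0.39 and normexp with quantile normalization gave -0.49, which is less than 1.5-fold in either case. That mean includes a probe not above background, and the normexp offset draws differences of dim probes toward 0. Wnt9b had levels of -2.24 and -2.69 and differed by -0.45, with a scanner error of 0.21. Both ligand genes were lower on the KO-labelled array by more than 2 times that error.

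Wnt16 had a signal of 42.0 ± 4.94 on the KO-labelled array and 13.4 ± 3.22, not well above background, on the other. Taken against the lowest signal called above background on the WT-labelled array, Wnt16 was at least 3.18-fold higher. Its other probe was above background on neither array. Averaged with that probe, the KO-labelled level did not exceed the lowest level above background on the WT-labelled array. The bound over both probes is then 0 by construction, which does not show equal levels. Wnt10a had signals of 12.7 ± 3.14, not well above background, and 28.8 ± 3.82, and was at least 2.18-fold higher by the same measure. Normexp with quantile normalization of median pixel values, whose offset draws dim differences toward 0, put both bounds at 0.30 on the log2 scale. Such bounds allow nothing for spot noise, whose technical SD at these levels was 0.33.

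Some Wnt genes lie next to each other in the genome, and 4 pairs of the 19 were direct neighbours in the order of protein-coding genes on GRCm38.p6. Wnt10a lies beside Wnt6, which was not well above background on either array. Wnt9b (-0.45) lies beside Wnt3 (-0.03). Wnt3a and Wnt10b, the neighbours of Wnt9a and Wnt1, were above background on neither array. Wnt2, Wnt2b, Wnt7a, Wnt7b, Wnt8a, Wnt8b and Wnt4's other probe were likewise too dim for a difference to be given.

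All 12 receptor genes were above background on both arrays, and all lay within 0.28 of 0. They ranged from Fzd6 at -0.28 to Fzd8 at 0.19, with a median of -0.03. Of these receptor genes 5 were above 0 and 7 (58.3%) below it, against 58.1% of all named genes measured on both arrays. Fzd4, Lrp5, the tetraspanin Tspan12 and norrin itself, encoded by Ndp, form the signalling unit that retinal vessels need. Fzd4 had levels of 0.53 on the WT-labelled and 0.68 on the KO-labelled array. Lrp5 had levels of 0.67 and 0.62, Tspan12 of 0.89 and 0.89, and Ndp of 0.66 and 0.72. The 4 genes of this unit thus differed by 0.15 or less. Lrp6 had levels of 1.75 and 1.71 and differed by -0.04 and 0.05 in its probes, Fzd5, which is needed for eye development, at -0.01 and -0.13, and Fzd10 had levels of 0.95 and 1.12.

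Among secreted inhibitors, 7 of 10 genes were measured on both arrays, and they ranged from -0.27 (Sfrp5) to 0.19 (Sfrp4). Dkk3, a divergent member of the Dickkopf family that is abundant in Müller glia, had a signal of 30125 on the WT-labelled and 30147 on the KO-labelled array. Its difference of 0.05 equals the technical SD at that level. Frzb had levels of 0.30 and 0.28. Frzb, Sfrp2, Sfrp1 and Wif1, all of which bind Wnt proteins, were at -0.02, -0.02, -0.20 and 0.10. Dkk2 and Dkk4 joined Dkk1 in being well above background on neither array. None of the secreted inhibitors was 1.5-fold apart.

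In the probes that stand for them, the 5 cytoplasmic genes ranged from -0.094 to 0.081. Ctnnb1, which encodes beta-catenin and had 2 spots an array, had levels of 3.36 and 3.32. Axin1, the constitutive scaffold of the destruction complex, was at -0.09. Of the DNA-binding partners, Tcf7l1, mainly a repressor, was at 0.19, Tcf7 at 0.03 and Tcf7l2 at -0.06. A further Tcf7l2 probe, designed to another transcript of the gene, had signals of 45.8 ± 5.56 and 68.8 ± 7.42. Its levels of -3.65 and -3.01 differ by 0.64, against a technical SD of 0.19, and the third probe was above background on neither array. Tcf7l2 probes for different transcripts therefore disagreed, as the Axin2 probes for 1 transcript did.

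Outside the rule, 50 further genes of the pathway were taken as a list, and 47 were above background. Their median difference on both arrays was -0.004, and 41 of the 45 lay within 0.25 of 0. Of the 45, 22 were above 0 and 23 (51.1%) below it, against 58.1% of all named genes measured on both arrays. Tle1, a Groucho co-repressor that Tcf factors recruit, was the highest at 0.81, with a level of 1.31 on the WT-labelled and 2.12 on the KO-labelled array. Its 4 probes were all above 0, at 0.81, 0.83, 0.58 and 0.25. Kremen2, a Dickkopf receptor, had a bound of at least 2.01-fold higher and was the only one past 2-fold, and none was 2-fold lower. The next highest was Ror2, a receptor of Wnt5a, at 0.37. Wls, which carries Wnt proteins to the cell surface, was the lowest measured on both arrays at -0.45, with levels of -1.47 and -1.92, followed by the beta-catenin cofactor gene Bcl9l at -0.24. Ror1, a relative of Ror2, was at least 1.49-fold lower by a bound. The destruction complex genes Apc (-0.01), Gsk3b (-0.09) and Csnk1a1 (-0.05), the Dishevelled genes Dvl1 (-0.01), Dvl2 (-0.16) and Dvl3 (0.08), and Porcn, which lipidates Wnt proteins (-0.004), were all less than 1.5-fold apart. So were the polarity genes Vangl2 (0.02), Celsr3 (-0.07) and Prickle1 (0.27). The genes of these last 2 sentences, like Ndp, Tspan12, Notum, Apcdd1, Ccnd1 and Myc above, were picked as examples after their values were seen.

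**Figure D5:**
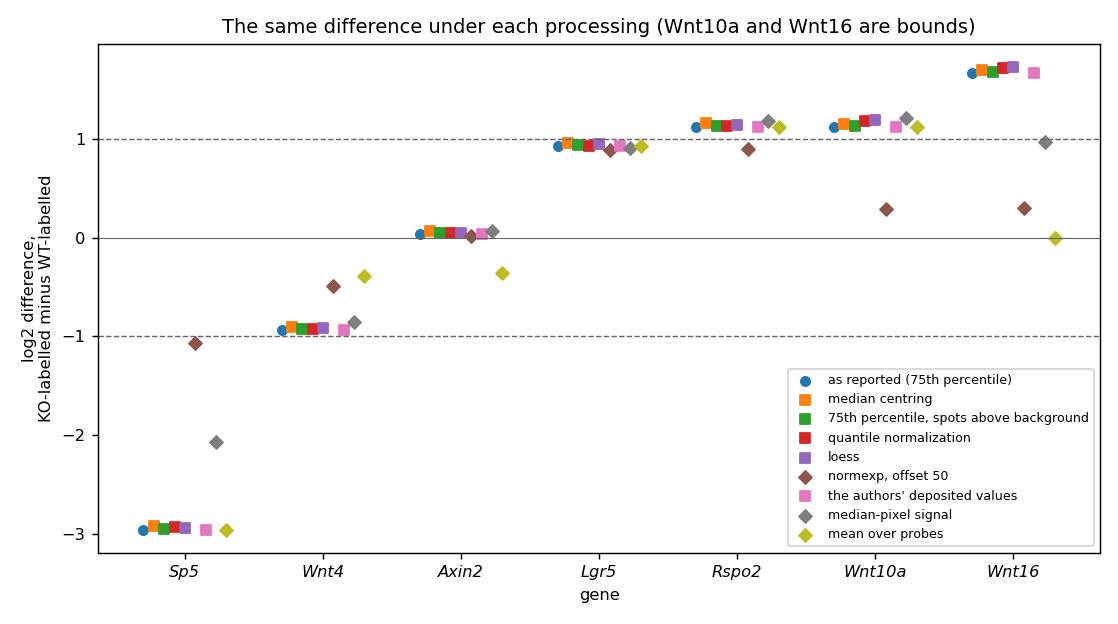
Log2 difference of 7 Wnt pathway genes under each processing, with squares for other scalings and the authors' values, diamonds for normexp, median-pixel signal and the mean over probes, and dashed lines at 2-fold; Wnt10a and Wnt16 are bounds. Lgr5 stays between 0.89 and 0.96 and Rspo2 between 0.90 and 1.18, whereas Sp5 ranges from -2.96 to -1.07 and Wnt16 from 0 to 1.73. The -1.07 for Sp5 is the normexp value, which the offset draws toward 0. The 0 for Wnt16 is the bound for the mean over its probes, which includes a probe not above background.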

How the data were processed

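The authors deposited scanner files of linear intensity values from Agilent Feature Extraction 11.5.1.1 with protocol GE1_1105_Oct12, on a design built on mm9, per the file headers. The deposited value table holds the same processed intensity times a constant per array: the log2 ratio of table to scanner value was 1.31 on the WT-labelled and 1.37 on the KO-labelled array, the labels do not say how this constant was set, and the table's medians were 107.8 and 106.0. Here, log2 processed signal was taken relative to the 75th percentile over non-control spots (574 and 554), flagged spots were left out (119 and 163), and spots of a probe were averaged. Of 55677 probes, 28324 (50.9%) had 1 symbol by transcript accession in RefSeq GRCm38.p6, 0 had several and 27353 had none. The probe with the highest signal stood for a gene. Bounds were taken against the higher of the array's lowest signal above background and the probe's own. Full values were given for Samd7, for Wnt pathway genes at least 1.5-fold apart and for the 2 of each role with the highest signal, with others as examples. The members and lists were chosen with earlier results of these data known. The number of arrays limits the precision. limma 3.58.1 in R 4.3.3 gave normexp, quantile and loess values. The counting step was tested on simulated data with changes placed in brighter genes only. That does not cover calls on dim genes such as Wnt4, Wnt10a and Wnt16.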

Additional observations from a re-analysis of the deposited data

How the results depend on the processing

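Against 3 Wnt pathway genes at least 2-fold higher and 1 at least 2-fold lower, median centring, quantile normalization, loess, the 75th percentile over spots above background and the authors' deposited values named the same genes, Rspo2, Wnt10a, Wnt16 and Sp5. Normexp with quantile normalization of median signals left 0 higher and Sp5 lower, with Rspo2 at 0.90. Median-pixel signal alone, and the mean over probes, left 2 higher, without Wnt16. The mean over probes averages in a Wnt16 probe that was not above background. Normexp adds an offset of 50 to every signal, which draws differences of dim probes toward 0. How much of each change came from the offset, and the cause of the other changes, was not tested. Requiring both arrays above background left 1 higher, which drops bounds by construction. Only genes with a mean signal at or above the median of all genes gave 0 and 0, with 10 members left. At 4-fold 0 were higher, and at 1.5-fold 2 were lower. Leaving out uneven spots, an alternative chosen after seeing the data like the median-pixel signal, gave 0 lower, because it drops Sp5 by construction. Of the other pathway genes, normexp left 0 higher against 1, and median-pixel signal gave 1 lower, Ror1, against 0. The median of the members lay between -0.02 and 0.05 throughout and took either sign. Of 352 recomputed values of 44 members, 30 moved by over the technical SD, 10 each under normexp, the mean over probes and the median-pixel signal. The sign changed in 24 values of 16 members, whose values as reported all lay within 0.29 of 0. Recomputed values could lie farther from 0, as for Axin2 at -0.35 under the mean over probes. Over all named genes, 251 were higher and 218 lower as reported, 125 and 45 under normexp, 160 and 94 with both arrays above background, 579 and 671 with no filter, and 70 and 14 at or above the median signal. No paired analysis was possible because there is only 1 array of either genotype.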
